A study of Mus musculus with 32 samples.

Results

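The sterol and fatty acid synthesis genes examined here are 30 genes, matched by symbol, out of 24475 genes in each deposited expression table. Of these, 7 act in the mevalonate steps, 11 between squalene and cholesterol, 4 encode SREBP or its regulators, 6 make fatty acids and 2 move cholesterol inside the cell. The genes were chosen by function, but with earlier results of these data known. They were followed in RNA of 2 mouse cell lines that carried either a guide targeting Bcl11b or a control guide, and in the binding of 4 transcription factors in the same lines.

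Cells build cholesterol from acetyl-CoA through mevalonate, isoprenoid diphosphates, squalene and lanosterol, and build fatty acids from acetyl-CoA through malonyl-CoA. Most genes of both routes are targets of the SREBP transcription factors, which Scap escorts to the Golgi for cleavage when membrane sterol is low and which Insig proteins hold in the endoplasmic reticulum when sterol is plentiful. Lymphocytes raise both routes when they grow and divide, because new membrane is needed.

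The Scid.adh.2c2 line came from a lymphoma and resembles pro-T cells. The ILC2/b6 line consists of group 2 innate lymphoid cells, and its medium contains IL-33, IL-7 and IL-2. In each line, 2 RNA libraries came from cells transduced with the control guide (sgControl-CFP) and 2 from cells transduced with the Bcl11b guide (sgBcl11b-CFP). No other allele or agent is named for the RNA groups, and the medium differs between the lines. Cells for which no guide is named gave, in each line, 2 ChIP-seq libraries each for Bcl11b, GATA3, Runx1 and Runx3, and the authors deposited 1 peak list per factor and line. Of the 32 samples in 16 groups of 2, 8 are RNA, 16 are ChIP and 8 are inputs, which were not used here. Input titles name FA or DSG in each line and ChIP titles name neither, so the factors' lists may differ in preparation. Each line is a single cultured line. Whether the 2 libraries of a group are separate cultures is not in the labels, and the p-values therefore cover only the spread among these libraries, possibly technical. How Cas9 was supplied and how cells were selected are not given in the sources used here.

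RNA depth, recovered from the steps of the values, was 34.7 to 43.7 M reads per library. Levels are in RPKM, reads scaled to transcript length and library depth, and a single read (1) on 2 kb of transcript added 0.0114 to 0.0144 RPKM. These steps cover counting error only. Bcl11b mRNA was 47.0 and 49.5 RPKM in the Scid.adh.2c2 controls and 47.1 and 46.8 with the guide, and 6.85 and 6.33 against 7.04 and 7.24 in ILC2/b6. Neither change passed the test, so the mRNA level gives no check of the guide labels. Of 10 pro-T markers, 9 reached 1 RPKM in Scid.adh.2c2, and all 9 ILC2 markers did in ILC2/b6. Summed levels of the B cell markers were 0.204 to 0.944 RPKM over the 8 libraries, those of the erythroid markers 0.631 to 1.97 and those of the myeloid markers 0.160 to 3.94, the highest being Itgam in Scid.adh.2c2 (1.81 RPKM with the control guide and 3.41 with the Bcl11b guide). Pax5 and Ms4a1 were at 0 in both groups of that line.

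Hmgcs1, the synthase that feeds HMG-CoA into the mevalonate route, was listed at 0 RPKM in all 8 libraries. The tables place it on the unplaced part of chromosome 13 with 2 copies, and with a different transcript in each table. Its promoter nevertheless carried Bcl11b peaks in both lines, and its level is given here only as listed at 0. The other 29 genes were above 0 and had the same transcript in both tables, and all 29 passed the filter on low values (1 RPKM in at least 2 libraries) in each line. Scd1 in ILC2/b6 passed it through the control libraries alone.

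Promoter sequence was taken from RefSeq on GRCm38.p6, as the 250 bases before the start. It was found for 23 of the 30 genes, with 29 starts. The pentamer CCAAT, the core bound by NF-Y, a usual partner of SREBP, was searched on both strands. It was present for 18 of the 23 genes (78.3%), against 37.5% of all 27025 genes in the table, and in 65.5% of the 29 member promoters against 33.8% of all promoters of that length. The strict sterol element TCACNCCAC was present for 1 gene, Hmgcs1 (4.35%, against 1.22% of all genes). The Runx core TGTGGT was present for Acaca, Acly and Lss, which is 13% of the genes found against 15.9% of all genes. The core that GATA3 and related factors bind, searched as AGATAA, was present for 0 of 23 genes, against 11.4% of all genes. In the 5 promoters printed here no match overlaps another. A match is a run of letters and was not tested as a binding site. The 5 promoters below were chosen after the values were seen, to show the most CCAAT matches (Mvk), the sterol element (Hmgcs1), a Runx core beside a CCAAT (Lss), the gene with the largest fall (Tm7sf2) and a regulator that was lower with the guide in both lines (Srebf2). Capitals mark matches on either strand.
Hmgcs1: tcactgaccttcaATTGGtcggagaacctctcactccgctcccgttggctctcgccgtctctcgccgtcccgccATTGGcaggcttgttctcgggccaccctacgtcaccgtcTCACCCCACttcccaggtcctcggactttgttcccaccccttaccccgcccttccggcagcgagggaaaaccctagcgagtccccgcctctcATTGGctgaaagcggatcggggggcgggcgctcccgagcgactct
Mvk: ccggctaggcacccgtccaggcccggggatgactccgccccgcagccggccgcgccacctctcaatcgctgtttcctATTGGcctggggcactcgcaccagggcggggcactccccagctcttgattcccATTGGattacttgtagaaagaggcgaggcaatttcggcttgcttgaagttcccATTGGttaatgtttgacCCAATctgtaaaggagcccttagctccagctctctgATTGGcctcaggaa
Lss: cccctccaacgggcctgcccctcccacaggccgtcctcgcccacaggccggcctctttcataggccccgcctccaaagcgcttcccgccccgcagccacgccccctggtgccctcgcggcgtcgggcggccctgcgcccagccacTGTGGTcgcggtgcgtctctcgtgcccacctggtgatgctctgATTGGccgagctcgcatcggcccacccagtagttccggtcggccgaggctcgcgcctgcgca
Tm7sf2: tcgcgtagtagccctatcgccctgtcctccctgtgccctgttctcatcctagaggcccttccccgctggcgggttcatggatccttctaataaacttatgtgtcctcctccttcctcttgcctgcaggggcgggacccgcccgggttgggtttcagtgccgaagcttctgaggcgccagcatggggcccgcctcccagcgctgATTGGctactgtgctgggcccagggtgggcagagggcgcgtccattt
Srebf2: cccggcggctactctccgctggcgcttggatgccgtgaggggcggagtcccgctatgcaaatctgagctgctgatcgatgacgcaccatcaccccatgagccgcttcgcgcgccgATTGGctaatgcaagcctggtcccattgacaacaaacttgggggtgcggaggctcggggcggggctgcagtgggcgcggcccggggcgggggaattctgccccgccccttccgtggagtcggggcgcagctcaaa
In order, these lie at chr13:119690101-119690350 (+), chr5:114444019-114444268 (+), chr10:76531355-76531604 (+), chr19:6067851-6068100 (-) and chr15:82147019-82147268 (+). Mvk held 5 CCAAT matches, at 14, 50, 67, 120 and 173 bases before the start. In Hmgcs1 the sterol element stood 137 bases before the start, with CCAAT matches at 45, 176 and 237. In Lss the Runx core stood 105 bases before the start and the CCAAT 62 bases before it, while Tm7sf2 and Srebf2 held 1 CCAAT each, at 47 and 135 bases.

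The first comparison asks which of these genes changed when Scid.adh.2c2 cells carried the Bcl11b guide. Synthesis genes were mostly lower: of 29 tested, 21 fell, 3 rose (Ebp, Elovl6 and Npc1) and 5 did not pass. The members that fell were 72.4% of those tested, whereas 22.7% of all 10221 genes fell, 35.1% rose and 57.8% were called in either direction. The median log2 fold change was -0.33 for the members and 0.05 for all genes. The falls lay between -0.15 and -0.65 on the log2 scale. The test was limma on log2(RPKM + 0.5), Benjamini-Hochberg adjusted over all genes and called under 0.05, and fold changes are given on that scale with their SE.

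**Figure D1:**
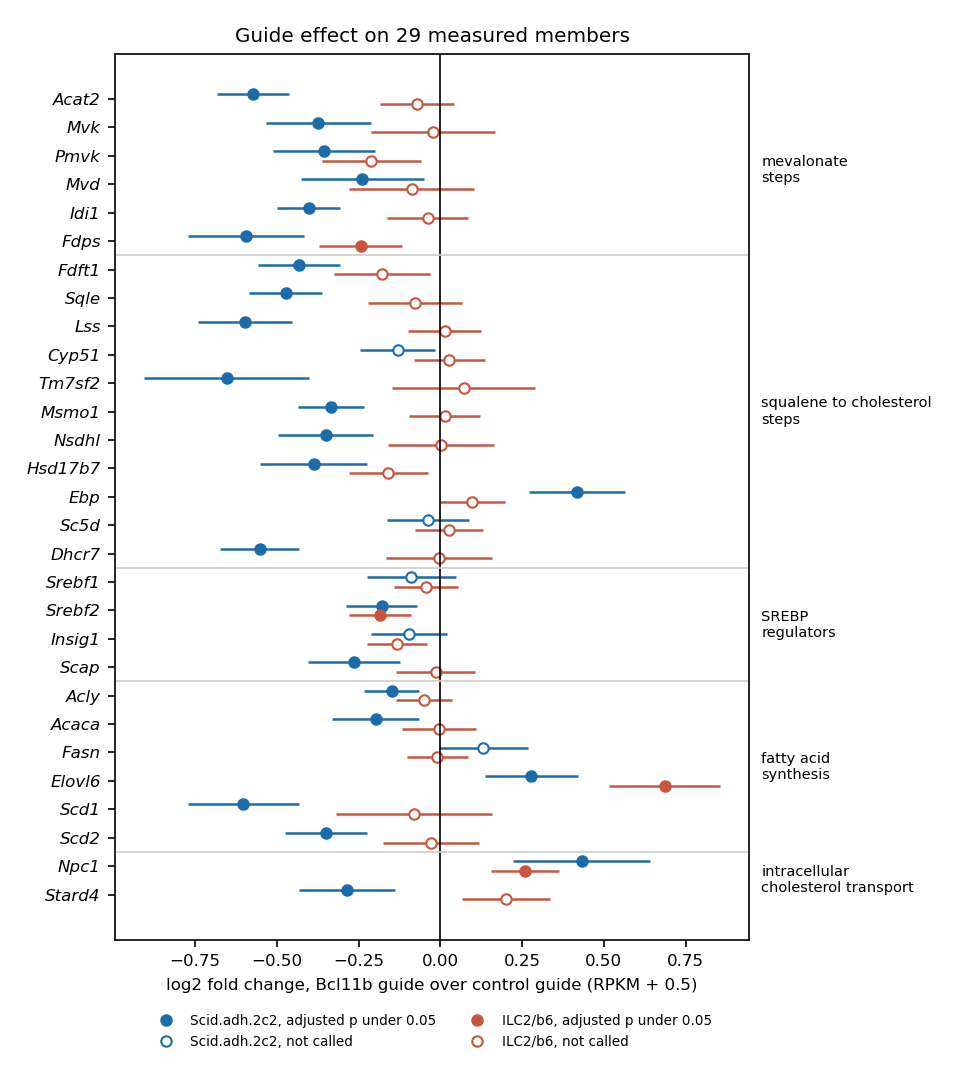
Log2 fold change of each measured gene with the Bcl11b guide, on log2(RPKM + 0.5), with 95% confidence intervals from limma; genes are grouped by role, blue is Scid.adh.2c2, red is ILC2/b6 and filled points passed the test (2 libraries per guide and line). In Scid.adh.2c2, 21 filled points lie left of 0 and 3 lie right of it; in ILC2/b6 only 2 lie on each side.

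In the mevalonate steps all 6 measured genes fell, with a median of -0.39. Fdps, which makes farnesyl diphosphate, the branch point to sterols and prenyl groups (mm9 chr3:88897510-88905889), had 133 and 112 RPKM in the controls and 79.6 and 82.0 with the guide. Its log2 fold change was -0.59 ± 0.07 (limma adjusted p = 0.000471). Acat2, which joins acetyl-CoA units at the head of the route (chr17:13135908-13153591), had 50.4 and 46.8 RPKM in the controls and 32.4 and 32.6 with the guide, a change of -0.57 ± 0.05 (adjusted p = 5.38e-05). For both genes every guide library lay below every control library, and the 2 guide libraries were closer together than the controls. Idi1, which isomerises isopentenyl diphosphate, fell from 60.5 ± 1.76 to 45.7 ± 0.895 RPKM (mean ± SD, n = 2). Mvk and Pmvk, the kinases that phosphorylate mevalonate in turn, fell with -0.37 and -0.36. Mvk had 17.5 and 15.5 RPKM in the controls and 12.7 and 12.4 with the guide, again with no overlap. Mvd, the decarboxylase that follows them, showed the smallest fall of the group at -0.24 ± 0.08 (adjusted p = 0.0366). Without Bcl11b guide replicate 1 the change of Mvd was no longer called, and neither was it without control replicate 1, with no filter on low values, with no mean-variance trend or in a joint fit of both lines.

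Between squalene and cholesterol, 8 of 11 genes fell, 1 rose and 2 did not pass. Tm7sf2, a sterol C14 reductase (chr19:6062821-6067850), had 6.64 and 5.38 RPKM in the controls and 3.76 and 3.49 with the guide. The change of -0.65 ± 0.11 (adjusted p = 0.00173) was the largest fall among the members in size, and its controls differed more from each other than its guide libraries. Lss, which closes squalene epoxide into lanosterol (chr10:75994350-76019884), had 13.3 and 12.6 RPKM in the controls and 8.20 and 8.57 with the guide. Its change was -0.60 ± 0.06 (adjusted p = 0.000165), and the groups were well apart. Dhcr7, a sterol reductase late in the route, fell from 28.8 ± 1.42 to 19.5 ± 0.506 RPKM, a change of -0.55. Sqle, the epoxidase that commits squalene to sterols, fell from 70.5 ± 3.98 to 50.6 ± 0.633 RPKM, a change of -0.47. In none of these genes did the groups overlap. Fdft1, the synthase that makes squalene, had 17.4 and 16.7 RPKM in the controls and 12.7 and 12.3 with the guide (-0.43). Hsd17b7, Nsdhl and Msmo1 act where the methyl groups of lanosterol are removed, and fell with -0.39, -0.35 and -0.33. Their control libraries lay at 6.91 and 6.95, 17.9 and 16.9, and 37.8 and 36.0 RPKM, and their guide libraries at 5.31 and 5.05, 13.0 and 14.2, and 29.2 and 29.1 RPKM.

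The genes of this group that were not called as falls act in the same route. Ebp, the isomerase that shifts a ring double bond, had 12.6 and 11.4 RPKM in the controls and 16.1 and 16.2 with the guide (0.42 ± 0.06, adjusted p = 0.00113), so every guide library lay above the controls. Cyp51, the lanosterol demethylase, had 36.4 and 33.7 RPKM against 32.1 and 31.8. That change of -0.13 ± 0.05 was not called (adjusted p = 0.0538), but it was called as a fall under 6 of 13 alternatives. Sc5d, a desaturase late in the route, had 13.5 and 13.9 RPKM against 13.1 and 13.6, and its groups overlapped (-0.04, 95% interval -0.16 to 0.09).

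Among the 4 genes of SREBP and its regulators, 2 fell and 2 did not pass. Srebf2, which encodes the SREBP form that mainly drives sterol genes, had 59.8 and 55.6 RPKM in the controls and 50.9 in each guide library. Its change was small, -0.18 ± 0.05 (adjusted p = 0.0127), and was not called when either guide library was left out (adjusted p up to 0.0742). Scap, the escort of SREBP, fell from 21.8 ± 0.75 to 18.1 ± 1.2 RPKM (-0.26), and that call ended without Bcl11b guide replicate 1. Srebf1, whose product mainly drives fatty acid genes, had 23.0 and 21.1 RPKM against 20.2 and 21.3, with overlapping groups. Insig1, which retains Scap, had 36.4 and 33.7 RPKM against 32.9 and 32.6 (-0.10, adjusted p = 0.135).

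Of the 6 fatty acid genes, 4 fell, 1 rose and 1 did not pass. Scd1, a desaturase that makes oleate (chr19:44468940-44482199), had 34.9 and 30.1 RPKM in the controls and 20.6 and 21.7 with the guide, a change of -0.60 ± 0.07 (adjusted p = 0.000366). Its neighbour and close paralog Scd2 (chr19:44368166-44381352) was the most abundant member, at 244 and 221 RPKM in the controls and 182 in each guide library (-0.35 ± 0.05). Reads of close paralogs may be split between them by the authors' counting. Acaca, which makes malonyl-CoA, and Acly, which makes cytosolic acetyl-CoA from citrate, fell by 0.20 and 0.15 on the log2 scale, and both calls ended when either guide library was left out, that of Acaca also with no filter on low values. Fasn, the fatty acid synthase, had 66.7 and 75.1 RPKM in the controls and 76.8 and 78.4 with the guide. Its value of 0.13 ± 0.06 was not called (adjusted p = 0.0886). Elovl6, which lengthens palmitate, had 12.4 and 13.6 RPKM in the controls and 16.1 and 15.6 with the guide (0.28 ± 0.06, adjusted p = 0.00637). That rise was not called without Bcl11b guide replicate 1 or with quantile normalization, where the log2 fold change was 0.14.

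The cholesterol transport genes moved apart. Npc1, which exports cholesterol from lysosomes, rose from 2.70 and 3.04 RPKM in the controls to 3.97 and 4.12 with the guide (0.43 ± 0.09, adjusted p = 0.00498). Stard4, a carrier of sterol through the cytosol, had 10.9 and 10.3 RPKM in the controls and 8.59 and 8.64 with the guide (-0.29 ± 0.06, adjusted p = 0.00633). The call of Npc1 ended without Bcl11b guide replicate 2, and that of Stard4 without either guide library.

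**Figure D2:**
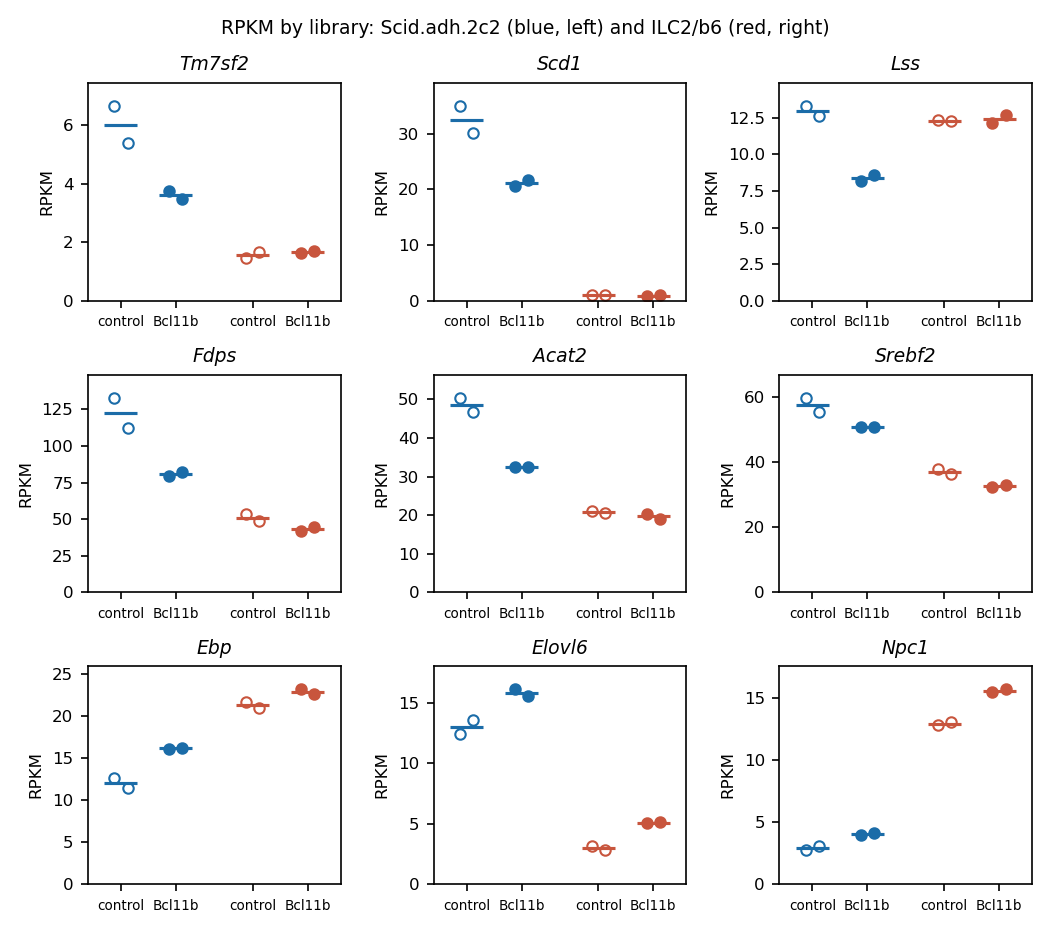
RPKM in each library for 9 genes named in the text; each point is a library, each bar the mean of 2, open points are control guide and filled points Bcl11b guide, with axes from 0. In Scid.adh.2c2 (blue) the guide libraries lie below the controls for Tm7sf2, Scd1, Lss, Fdps, Acat2 and Srebf2 and above them for Ebp, Elovl6 and Npc1; in ILC2/b6 (red) the groups of Tm7sf2 and Lss overlap.

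Libraries of the 2 guides did not overlap for 27 of the 29 members in Scid.adh.2c2, 23 lower and 4 higher, and for 80.0% of all genes tested. Of the 24 calls, 16 held under each of the alternatives that tested them: Acat2, Mvk, Pmvk, Idi1, Fdps, Fdft1, Sqle, Lss, Tm7sf2, Msmo1, Nsdhl, Hsd17b7, Ebp, Dhcr7, Scd1 and Scd2. Centring each library on its median shifted the all-gene median by -0.13 on the log2 scale. Then 62.6% of all genes were called, 38.5% falling and 24.1% rising, and calls that were rises went from 60.75% to 38.53% of all calls. The members then counted 25 falls and 3 rises. None of the 5 members not called stayed so under every alternative. Cyp51, Sc5d, Srebf1 and Insig1 were called as falls after centring and after quantile normalization, and Fasn as a rise with a replicate block and without control replicate 2. Relative to the median of all genes, the members' median was -0.39, which centring cannot change, and -0.35 with quantile normalization, which gave 25 falls and 2 rises (38.3% and 23.9% of all genes).

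Other groups moved with these genes in the same libraries. Of 21 glycolysis and hypoxia genes tested, 17 fell and 0 rose by limma (1 rose at an unadjusted p under 0.05), with a median of -0.82, and their summed level was 6610 and 4714 RPKM in the controls and 3226 and 3014 with the guide. The 2 controls were far apart: 20 of the 21 were higher in control replicate 1, by a median of 0.43 (log2). For the members the same gap was 0.10, with 21 of 29 higher in control replicate 1, and for all genes -0.04 with 36.7% higher. Between the Bcl11b guide libraries, replicate 1 was higher for 19 of the 21 glycolysis and hypoxia genes, by a median of 0.12. It was higher for 15 of the 29 members and 49.6% of all genes. Without control replicate 1 the members counted 20 falls and 3 rises with a median of -0.28, and without control replicate 2, 24 falls and 4 rises with a median of -0.37. The stroma and adipocyte markers summed to 66.9 and 37.6 RPKM in the controls and 18.1 and 14.1 with the guide. Of these 9 markers, 2 and 3 reached 1 RPKM on average, and Col3a1 and Pdgfra were at 0. Most of the sum was Fabp4, a fatty acid carrier, which fell (46.4 and 13.2 RPKM on average), as did Pdgfrb, a receptor of mural cells (5.74 and 1.36). Adipoq, an adipocyte hormone, had 0.037 and 0.094 RPKM in the controls and 1.70 and 1.28 with the guide. It passed the filter on low values through the guide libraries alone, so a call of it is not independent of that higher level. The line's own pro-T markers also moved, their sum being 1041 and 1078 RPKM in the controls and 669 and 674 with the guide. Falls among them were Rag1, of the recombinase (-2.57), Lef1, a transcription factor (-2.13), Ptcra, the pre-T receptor chain (-1.92), and Il2ra, an IL-2 receptor chain (-1.86). Notch3 (-2.09) and Tcf7 (-0.84) fell as well. Not all of these markers fell: Cd3g rose (0.26), Cd3e (0.001) and Bcl11b (-0.04) were not called, and Rag2 was not tested. The part of any of these groups in the members' falls was not tested. In bulk RNA, fewer cells of a kind and less RNA per cell cannot be told apart.

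Other lipid genes moved in both directions. Of 21 other lipid synthesis and sterol genes tested, 8 fell, 6 rose and 7 did not pass, with a median of -0.05. The 3 largest changes were falls of Fads2 and Fads1, the desaturases of polyunsaturated fatty acids, by 1.08 and 0.59 on the log2 scale, and of Acsl3, which activates fatty acids, by 0.75. Fads2 had 48.1 and 43.9 RPKM in the controls and 20.7 and 22.3 with the guide. Of 13 genes that use isoprenoids made upstream of squalene, 4 rose, led by Fnta (0.31), Ggps1 (0.28) and Dhdds (0.23), and 0 fell by limma, also at an unadjusted p under 0.05. The rises were 30.8% of the list, near the 35.1% of all genes, and the list's median was 0.04. Of 9 genes of sterol efflux and LXR signalling, only 3 passed the filter on low values. These 3 rose, as did 35.1% of all genes: Nr1h2 (LXR beta) from 22.4 ± 0.226 to 35.0 ± 0.711 RPKM (0.64), Abca7 by 0.51 and Lpcat3 by 0.20. Fatty acid oxidation, the breakdown route, had 5 rises and 2 falls among 11, Acadl (0.96) and Acadvl (0.45) among the rises. These were 45.5% and 18.2% of the list, against 35.1% and 22.7% of all genes, and its median of 0.04 was close to the 0.05 of all genes.

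The second comparison is the same guide in ILC2/b6, where the synthesis genes stayed close to their control levels. Of 29 tested, 2 rose, 2 fell and 25 did not pass. That is 13.8% called, against 14.5% of all 10526 genes (8.32% rose and 6.21% fell), and the median was -0.02 for the members and 0.02 for all genes. After centring on medians, 2 members rose and 5 fell. Rises were 57.25% of all calls, 41.66% after that centring and 50.78% after quantile normalization. Elovl6 stood apart, with 3.12 and 2.82 RPKM in the controls and 5.02 and 5.14 with the guide (0.69 ± 0.07, adjusted p = 0.00147). Among the 4 calls it alone held under all alternatives that tested it. Npc1 rose from 12.8 and 13.0 RPKM to 15.4 and 15.7 (0.26 ± 0.04, adjusted p = 0.01), a call that ended without Bcl11b guide replicate 2 (adjusted p = 0.0580).

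The falls in ILC2/b6 were in Fdps and Srebf2. Fdps had 53.3 and 49.0 RPKM in the controls and 41.6 and 44.6 with the guide (-0.24 ± 0.05, adjusted p = 0.0261). Srebf2 had 37.9 and 36.3 RPKM against 32.3 and 32.9 (-0.18 ± 0.04, adjusted p = 0.0258). Both groups of libraries stood apart in each gene, but both calls ended with no filter on low values, with no mean-variance trend, without replicate 1 of either guide, that of Fdps also in a joint fit of both lines and that of Srebf2 also without Bcl11b guide replicate 2. Left out in turn, single libraries gave 2 to 5 calls.

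Between squalene and cholesterol, 0 of 11 genes were called in ILC2/b6 by limma. At an unadjusted p under 0.05, 2 fell, Fdft1 (-0.18) and Hsd17b7 (-0.16). Lss, which fell in the other line, had 12.3 and 12.2 RPKM in the controls and 12.2 and 12.7 with the guide (0.01, 95% interval -0.10 to 0.12). Dhcr7 had 6.24 and 5.58 RPKM against 5.99 and 5.77, with an interval of -0.17 to 0.16, and its groups overlapped. In the mevalonate steps Pmvk had -0.21 (adjusted p = 0.0702) and Acat2 -0.07 with an interval of -0.19 to 0.04. Stard4 had 9.08 and 9.27 RPKM against 11.1 and 10.2 (0.20 ± 0.06, adjusted p = 0.0592). Groups did not overlap for 14 of the 29 members and for 59.9% of all genes tested.

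The other lists were also mostly not called there. Of 20 other lipid genes, 2 fell (Soat1, which esterifies cholesterol, by 0.37, and Me1, which supplies NADPH, by 0.19) and Mbtps1, the protease that cleaves SREBP first, rose by 0.14. None of 13 isoprenoid genes was called (1 higher and 1 lower at an unadjusted p under 0.05), and 0 of 4 efflux and LXR genes (2 higher). Eci1 (0.36) and Acadl (0.26) rose among 12 oxidation genes. Of 22 glycolysis and hypoxia genes, 5 fell and 2 rose, the 3 largest changes being Slc2a3 (-0.53), Egln3 (-0.32) and P4ha1 (0.28). Calls were 31.8% of that list (22.7% fell and 9.09% rose), against 14.5% of all genes (6.21% fell and 8.32% rose). The summed level of that list was 6841 and 6634 RPKM in the controls and 6189 and 6083 with the guide. The stroma and adipocyte markers summed to 1.54 and 1.04 RPKM in the controls and 2.71 and 2.75 with the guide. Fabp4, lower with the guide in the other line, was higher with it here, by 1.29 on the log2 scale. Its levels were low, 0.951 and 0.421 RPKM with the control guide against 2.333 and 2.327 with the Bcl11b guide. Only the Bcl11b guide libraries brought it past the filter on low values. Its call therefore depends on the higher level itself, and no p-value is given.

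Whether the guide acted differently on the lines was tested as the effect in ILC2/b6 minus that in Scid.adh.2c2, over all 8 libraries. It was higher for 17 of the 29 members, lower for 1 and not called for 11, with a median of 0.25 against -0.03 for all genes. Of all 11609 genes tested, 18.0% were higher, 27.1% lower and 45.1% called. The 8 higher genes between squalene and cholesterol included Tm7sf2 at 0.72 ± 0.14 (adjusted p = 0.00398), Lss at 0.61 ± 0.07 (adjusted p = 0.000199) and Dhcr7 at 0.55. In the mevalonate steps Acat2 (0.50), Idi1 (0.36), Mvk (0.35) and Fdps (0.35) were higher. So were Scd1 (0.52), Scd2 (0.32) and Stard4 (0.49). Elovl6 rose in both lines, and more in ILC2/b6 (difference 0.41 ± 0.09, adjusted p = 0.00788). Ebp was the 1 lower gene (-0.32, adjusted p = 0.00866). With median-centred values or quantile normalization, 21 members were higher and 0 lower, and Ebp was not called (adjusted p = 0.0919 and 0.112). Those scalings moved the share of higher values among all calls from 39.9% to 59.05% and 58.01%.

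Among the genes of SREBP and its regulators, the difference for Scap was called (0.25, adjusted p = 0.0384) and those for the other 3 were not. For Srebf2 the difference was -0.00, with a 95% interval of -0.14 to 0.13. For Insig1 it was -0.04 and for Srebf1 0.04, and a value that misses the threshold does not show that the lines respond alike. Leaving out single libraries gave 11 to 19 called members. The calls of Acat2, Idi1, Sqle, Lss, Tm7sf2, Msmo1, Dhcr7, Elovl6, Scd1 and Stard4 held under each alternative that tested them, and those of Mvk, Fdps, Fdft1, Nsdhl, Hsd17b7, Ebp, Scap and Scd2 ended under at least 1.

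Control levels, set side by side without a test because the tables were normalized apart, were higher in Scid.adh.2c2 for 24 of 29 members, with a median ratio of 2.26. Among 8931 genes at 1 RPKM or more in both lines, 67.9% were higher there, with a median ratio of 1.31. The widest gap was in Scd1, at 32.5 RPKM in Scid.adh.2c2 and 1.03 in ILC2/b6, followed by Scd2 (232 and 23.7) and Mvk (16.5 and 3.21). Lss (12.9 and 12.3) and Stard4 (10.6 and 9.18) were close between the lines. Npc1 (2.87 and 12.9), Ebp (11.98 and 21.33), Hsd17b7 (6.93 and 11.7), Sc5d (13.7 and 20.2) and Srebf1 (22.1 and 27.3) were the 5 members higher in ILC2/b6. Scd1 in ILC2/b6 lay near the filter of 1 RPKM, and it was not tested when either control library of that line was left out.

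**Figure D3:**
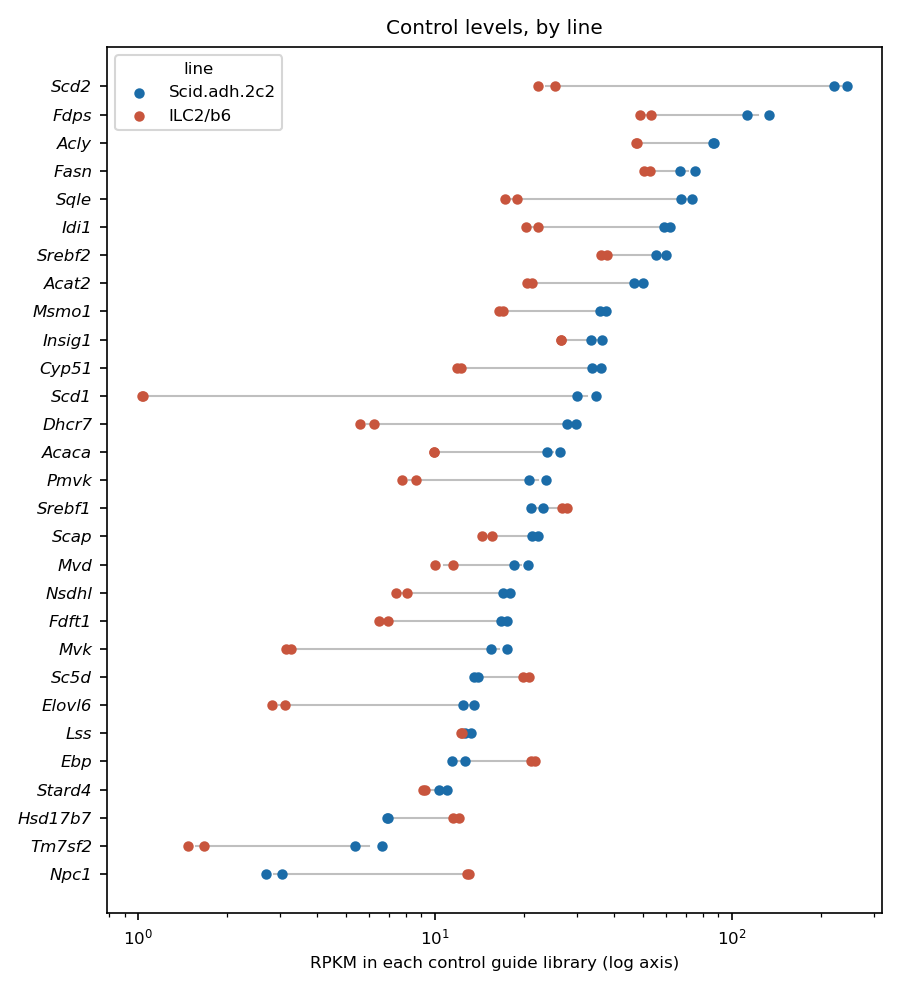
RPKM of 29 genes in each control guide library, on a log axis, ordered by the Scid.adh.2c2 mean; each point is a library, blue for Scid.adh.2c2 and red for ILC2/b6, and grey lines join the means. Blue points lie to the right for 24 of 29 genes, most for Scd1, and to the left for Npc1, Ebp, Hsd17b7, Sc5d and Srebf1.

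Binding was read from the 8 peak lists, each made from both libraries of a factor, so it has no replicate error. Scores are the authors' and rank peaks only within a list. A Bcl11b peak assigned to the gene lay within 1000 bp of the start for 18 of the 30 members in Scid.adh.2c2 and 15 in ILC2/b6. That is 60.0% and 50.0%. Of all genes tested in the RNA of each line, 59.8% and 52.6% had one, so the members' shares were near the background. Runx1 lay at 16 and 18 promoters (49.0% of all genes in each line), Runx3 at 20 and 20 (59.4% and 72.6%) and GATA3 at 2 and 3 (11.3% and 15.5%). The promoters of 12 members, among them Acat2, Cyp51, Lss, Sqle, Srebf1, Srebf2, Insig1 and Fasn, had Bcl11b, Runx1 and Runx3 in both lines. The share of all genes with these 3 factors in both lines was not computed, so that count is not a trait of the members.

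Promoter peaks of Bcl11b, as assigned to genes in the lists, were set beside the changes in RNA. In Scid.adh.2c2 it was present at 10 of the 21 members that fell, 2 of the 3 that rose and 5 of the 5 that did not pass. For all genes it was present at 59.4% of those that fell, 60.6% of those that rose and 59.3% of those not called. Among the genes with the 5 largest falls, Tm7sf2 (score 27.6), Lss (43.5) and Acat2 (30.8) had such a peak and Scd1 and Fdps had none. Nor was one assigned in either line to Dhcr7, Fdft1, Idi1, Mvk, Pmvk, Mvd, Nsdhl, Hsd17b7 or Acaca, and Ebp had no assigned peak in any of the 8 lists. The lists assign each peak to 1 gene, so a peak near a member's start can be counted for another gene. At Mvk, a GATA3 promoter peak of 39.5 in Scid.adh.2c2 overlapped a Bcl11b peak that was not assigned to Mvk. The highest promoter score for Bcl11b among the members was at Hmgcs1, 94.2 in Scid.adh.2c2 and 74.9 in ILC2/b6, the gene listed at 0 RPKM. At Insig1, GATA3 had a promoter peak of 194.6 in Scid.adh.2c2 (chr5:28398334-28398650) and 120.9 in ILC2/b6 (chr5:28398347-28398635), in an intron 540 and 539 bp past the start, and each overlapped a Bcl11b peak of its line. The promoter lists the lines share for Bcl11b hold 15 members, while Acly, Msmo1 and Tm7sf2 had a Bcl11b promoter peak only in the Scid.adh.2c2 list.

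**Figure D4:**
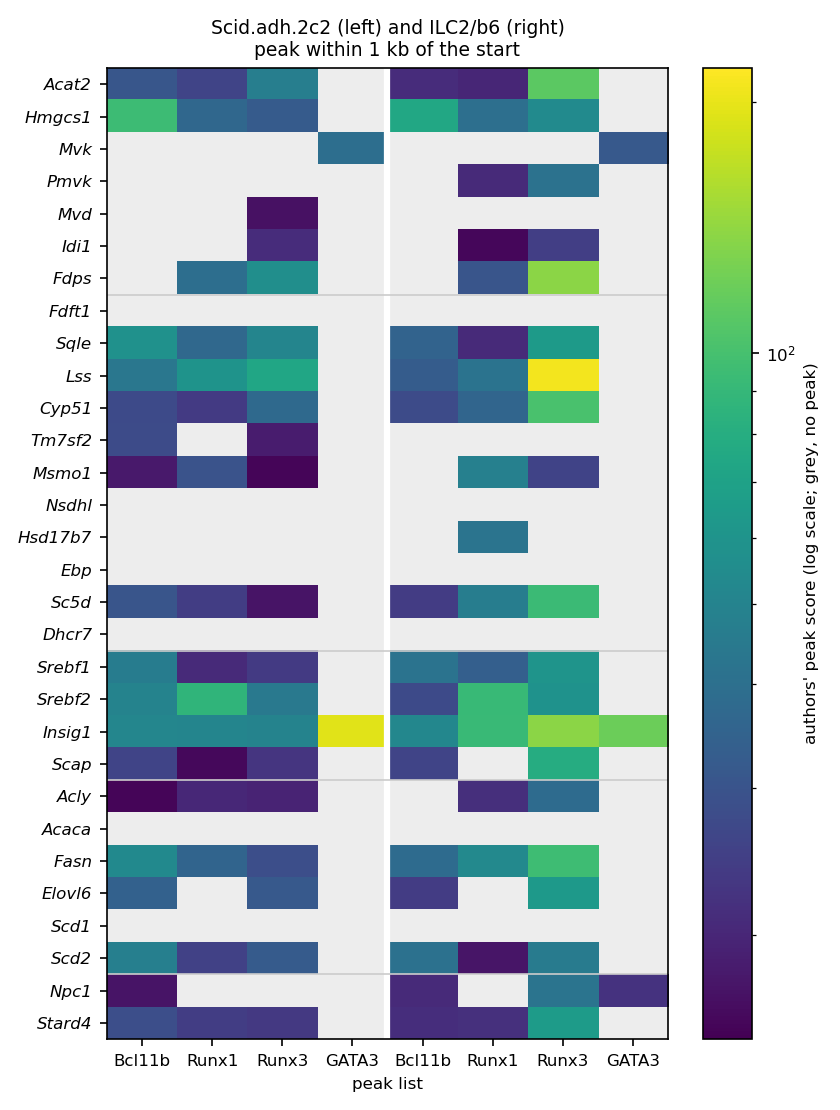
Highest peak score of each factor within 1000 bp of the start of the 30 genes, in rows grouped by role. The left 4 columns are the Scid.adh.2c2 lists and the right 4 columns the ILC2/b6 lists. Colour is the authors' score on a log scale and grey means no peak assigned to the gene. Bcl11b is coloured for 18 and 15 genes, GATA3 for 2 and 3, and the rows of Fdft1, Nsdhl, Ebp, Dhcr7, Acaca and Scd1 are grey throughout.

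Away from promoters, 27 Bcl11b peaks were assigned to 11 members in Scid.adh.2c2 and 18 to 11 members in ILC2/b6. Of these, 11 in each line overlapped a Bcl11b peak of the other line by at least 1 base, which is 40.7% and 61.1%, against 27.2% and 18.9% of all distal Bcl11b peaks in the lists. At promoters 17 of 22 and 17 of 19 were shared (77.3% and 89.5%, against 63.6% and 68.5%). Scd2, the most abundant member, had 6 distal Bcl11b peaks in Scid.adh.2c2, the strongest at chr19:44341428-44341664, 26620 bp before the start, with a score of 121.0, and the ILC2/b6 list held a peak of 69.4 there. Scd1 had a Bcl11b peak of 82.5 at chr19:44463148-44463384, 18933 bp from its start, in Scid.adh.2c2, and 22.5 at the overlapping site in ILC2/b6. As scores rank peaks only within a list, those at the Scd2 and Scd1 sites do not compare binding strength between the lines. Within Lss, intronic Bcl11b peaks of 132.0 (chr10:76004117-76004371) and 109.7 (chr10:76005825-76006079) ranked at 1.4% and 2.4% from the top of the ILC2/b6 list, and their counterparts of 50.0 and 46.1 at 16.5% and 19.8% of the Scid.adh.2c2 list. Lss mRNA fell in Scid.adh.2c2 and was not called in ILC2/b6. Mvk had 5 distal Bcl11b peaks in Scid.adh.2c2, the strongest of 62.3 at 61204 bp, and 0 in ILC2/b6. The assignment of distal peaks to genes is by nearest start, and whether any of them acts on these genes was not tested.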

How the data were processed

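RNA was measured in 8 libraries, 2 per guide and line, at 34.7 to 43.7 M reads. Levels are RPKM values as the authors deposited them, 1 table per line with 24475 genes, and the sources used here do not say which listed tool made them. The submitters' processing notes list Trimmomatic, Bowtie 1.1.1, STAR 2.4.0, RSEM 1.2.25, edgeR 3.6.8 and HOMER, with the builds mm9 and NCBIM37. Peak scores are those of the deposited HOMER lists, 1 list per factor and line made from both libraries, per the file headers. Gene and peak coordinates are on mm9 and promoter sequences on GRCm38.p6, and the builds were not mixed.

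Values were tested on the scale log2(RPKM + 0.5). The tool was limma 3.58.1 under R 4.3.3, its prior variance following the mean, over genes at 1 RPKM or more in at least 2 libraries. Calls are at a Benjamini-Hochberg adjusted p under 0.05 over all genes tested. Fold changes on this scale understate those of low genes. Each line was fitted alone, and the difference between lines over 8 libraries. Tables were otherwise handled with Python 3.11.15 and pandas 2.3.3. The fit was tested on simulated data. Changes of 2-fold were recovered in 100% of cases in both lines. Changes of 1.25-fold were recovered in 74% in Scid.adh.2c2 and 82% in ILC2/b6, so small changes can be missed. False calls were 23 of 208 in Scid.adh.2c2 and 22 of 209 in ILC2/b6, a share above the adjusted p threshold. Alternatives were other pseudocounts, filters, scalings, a replicate block, a joint fit, no trend and each library left out.

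Members and lists were chosen by function, with earlier results of these data known. All 30 members are described, and from each other list the 3 called genes with the largest change are named, apart from 1 that is not reported here. The 250-base promoter window, the promoters printed and the removal of second copies of Hmgcs1 peaks were chosen after the values were seen. Input libraries were not used here.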

Additional observations from a re-analysis of the deposited data

Results flagged for a closer look

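The effect of the Bcl11b guide differed between the lines in limma's test of the difference for the genes below. Values are the effect in ILC2/b6 minus that in Scid.adh.2c2 on log2(RPKM + 0.5), and each passed at an adjusted p under 0.05. In the mevalonate steps these were Acat2 (0.50), Mvk (0.35), Idi1 (0.36) and Fdps (0.35). Between squalene and cholesterol they were Fdft1 (0.25), Sqle (0.40), Lss (0.61), Tm7sf2 (0.72), Msmo1 (0.35), Nsdhl (0.35), Hsd17b7 (0.23) and Dhcr7 (0.55), with Ebp in the opposite direction (-0.32). The remaining members were Scap (0.25), Elovl6 (0.41), Scd1 (0.52), Scd2 (0.32) and Stard4 (0.49).

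Among genes of the other lists, the higher ones were Fads2 (1.03), Acsl3 (0.86), Fads1 (0.50), Ndrg1 (2.90), Ankrd37 (2.28), Bnip3 (1.62), Egln3 (1.29) and P4ha1 (1.1). The lower ones were Fnta (-0.30), Ggps1 (-0.35), Dhdds (-0.27), Nr1h2 (-0.65), Abca7 (-0.36), Acadl (-0.71), Acadvl (-0.44) and Slc2a3 (-0.40). Fads2 was not tested in ILC2/b6, where it lay at 0.286 to 0.552 RPKM, so its difference rests on the fall in Scid.adh.2c2. These genes were named for the size of their change within 1 line, so their differences are not independent of that choice.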

How the results depend on the processing

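Members called in Scid.adh.2c2 numbered 24, and 22 to 28 under other pseudocounts, filters, scalings, trend and joint fit. Left-out libraries gave 17 to 28, the lowest without Bcl11b guide replicate 1. In ILC2/b6 the 4 calls became 2 with no filter on low values, 2 with no mean-variance trend and 7 with median-centred values, and 2 to 5 with libraries left out. The difference between lines had 14 to 21 called members under the alternatives, against 18, and 11 to 19 with libraries left out. A lone library in a group is then assumed to vary like the others. With a peak score of at least 30, promoter Bcl11b peaks lay at 11 members in Scid.adh.2c2 and 7 in ILC2/b6. Over all genes tested, same-numbered libraries deviated together weakly, with correlations of 0.037 and 0.106 over 2 pairs a line. The numbers were therefore not taken as pairs, although the glycolysis and hypoxia genes of Scid.adh.2c2 were mostly higher in replicate 1 of both guides. With a replicate block the called members numbered 26 in Scid.adh.2c2, 6 in ILC2/b6 and 17 in the difference. Of 1180 values of members under alternatives 36 changed sign, 0 of them among called values. A sign change with no call in either fit was counted as no change, a choice made after seeing the data. The 2 libraries per group limit the precision of every value.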
